A study of Mus musculus with 8 samples.

Results

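Myeloid growth factors and their receptors were followed in whole bone marrow (BM) RNA-seq of mice with altered Gfi1, the zinc finger repressor that neutrophil development depends on. The 9 genes were taken as a list of names and matched to the Ensembl identifiers of the count files: the growth factor gene Csf1, the receptor genes Csf1r, Csf3r, Csf2ra, Csf2rb, Csf2rb2 and Il3ra, and the feedback inhibitors Socs3 and Cish. All 9 were found among the 41214 genes counted, and all 9 passed the filter on low counts in every comparison. The study compared mice that express little Gfi1 with mice that express none.

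The 8 libraries came from 8 C57Bl6 mice, 2 in each of 4 groups. The young KD mice (39 and 42 days old) and the sick KD mice (187 and 78 days old) carry a Gfi1 locus with human GFI1 cDNA knocked in and expressed at a reduced level, and the young KO mice (48 and 44 days old) and the old KO mice (158 and 101 days old) lack Gfi1 throughout the body. The sick KD mice are labelled as having AML, and the study describes the disease of such mice as a myeloproliferative neoplasm. The labels name no treatment, and no wild-type BM was analysed here, so that every group carries an altered Gfi1 locus. Disease and age differ together between sick KD and young KD mice, and genotype and disease differ together between old KO and sick KD mice. Their shares in a difference cannot be told apart.

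Libraries held 26642067 to 42679114 counts on genes. The alignment tallies set the sick KD libraries apart: reads outside genes made up 42.0% and 38.8% in sick KD against 26.9% to 33.8% in the other 6, and alignments that were not unique numbered 1.69 and 1.87 per count on genes against 1.06 to 1.14. The mouse Gfi1 gene was at 5.49 and 7.15 CPM in sick KD, 6.17 and 7.03 in young KD, 14.0 and 14.4 in young KO, and 13.3 and 29.7 in old KO libraries. CPM is the count relative to the library's total after TMM scaling, which sets the libraries to a common level. Counts on the mouse gene do not measure the human cDNA, and transcripts of a KO allele can still be counted, so this gene does not check the labels, on which all directions below rest.

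M-CSF, the product of Csf1, acts through the receptor tyrosine kinase Csf1r and is needed by monocytes, macrophages and osteoclasts. G-CSF acts through Csf3r, the receptor that drives neutrophil production. GM-CSF, IL-3 and IL-5 each have an alpha chain of their own (Csf2ra for GM-CSF, Il3ra for IL-3) that pairs with the common beta chain Csf2rb, and mice have in addition Csf2rb2, a beta chain that serves IL-3 only. Receptors of the G-CSF and beta chain kind have no kinase and signal through JAK kinases and STAT factors, which in turn induce inhibitors of the same signal such as Socs3 and Cish.

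In sick KD BM the beta chains, the GM-CSF alpha chain and Socs3 were at their highest level and Csf1 at its lowest, while Csf1r, Csf3r, Il3ra and Cish were not called in any comparison that involved sick KD mice. Both sick KD libraries lay above all other 6 libraries for 4 of the 9 genes (Csf2ra, Csf2rb, Csf2rb2 and Socs3) and below all of them for 1 (Csf1). Of the 15102 genes tested over the 8 mice, 24.6% had both sick KD libraries above and 23.7% had both below the other 6, so such a position is common in these data.

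**Figure D1:**
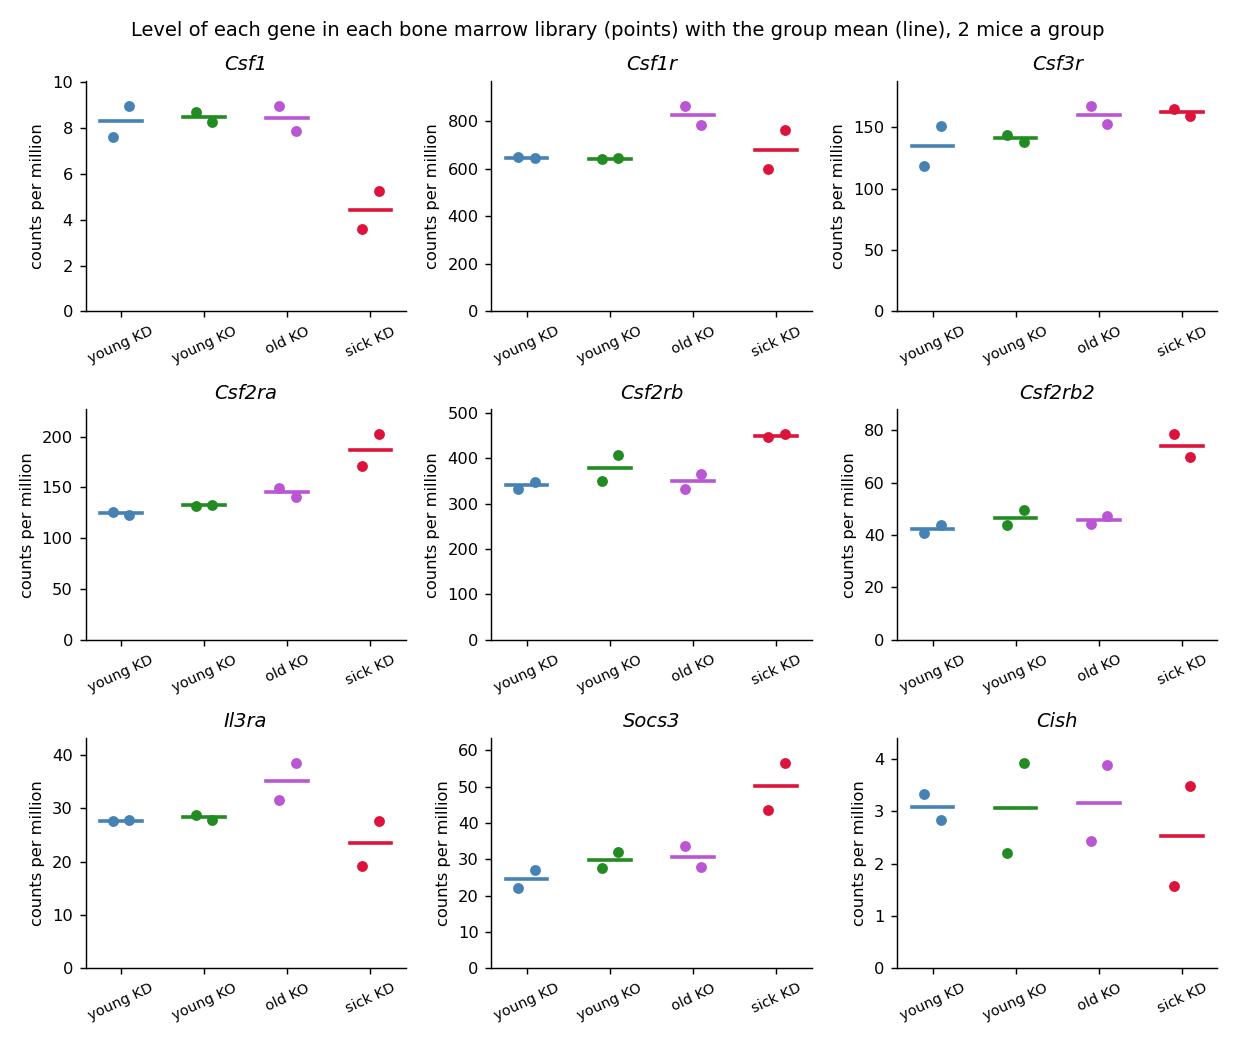
Level of each of the 9 genes in CPM (vertical axes, from 0) in the 2 libraries of each group (points), with the mean as a line. Csf2rb2 is at 69.6 and 78.4 CPM in sick KD against 40.9 to 49.3 in the other 6 libraries, and Csf1 is at 3.59 and 5.23 against 7.61 to 8.95.

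Csf1 was the only gene of the list that encodes a growth factor. It was at 3.59 and 5.23 CPM in sick KD, 7.61 and 8.93 in young KD, 8.68 and 8.22 in young KO and 8.95 and 7.86 in old KO libraries. The sick KD libraries were the lowest, and the other 3 groups overlapped one another. Csf1 was lower in sick KD than in young KD BM by a log2 fold change of -0.91 (SE 0.25, edgeR adjusted p = 0.0451) and higher in old KO than in sick KD BM by 0.93 (SE 0.26, edgeR adjusted p = 0.0478). Both comparisons use the same sick KD libraries. Each of these calls was lost in 3 of 4 fits that left out 1 library: without sick KD replicate 1 the log2 fold change against young KD was -0.66 (adjusted p = 0.106), and without young KD replicate 1 or 2 the adjusted p was 0.0581 or 0.0991; against old KO it was 0.69 (adjusted p = 0.152) without sick KD replicate 1, with an adjusted p of 0.117 or 0.0528 without old KO replicate 1 or 2.

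Marker lists of several other cell types were lowest in the same libraries as Csf1. The 10 genes of the stroma list, all of them with counts in each group, summed to 31.0 and 30.7 CPM in sick KD against 110 to 217 CPM in the other 6 libraries, and the 11 macrophage genes to 233 and 265 CPM against 305 to 554 CPM. The 10 erythroid genes summed to 977 and 1402 CPM against 2005 to 6087 CPM, and the 10 B cell genes to 36.8 and 99.1 CPM against 129 to 1063 CPM. A low B cell sum was not particular to sick KD mice. It was 129 and 209 CPM in old KO against 657 and 905 CPM in young KO libraries, with 9 of the 10 genes called lower. Fewer cells of a type and less RNA per cell cannot be told apart in whole BM, and the part of these shifts in the level of Csf1 was not tested.

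**Figure D2:**
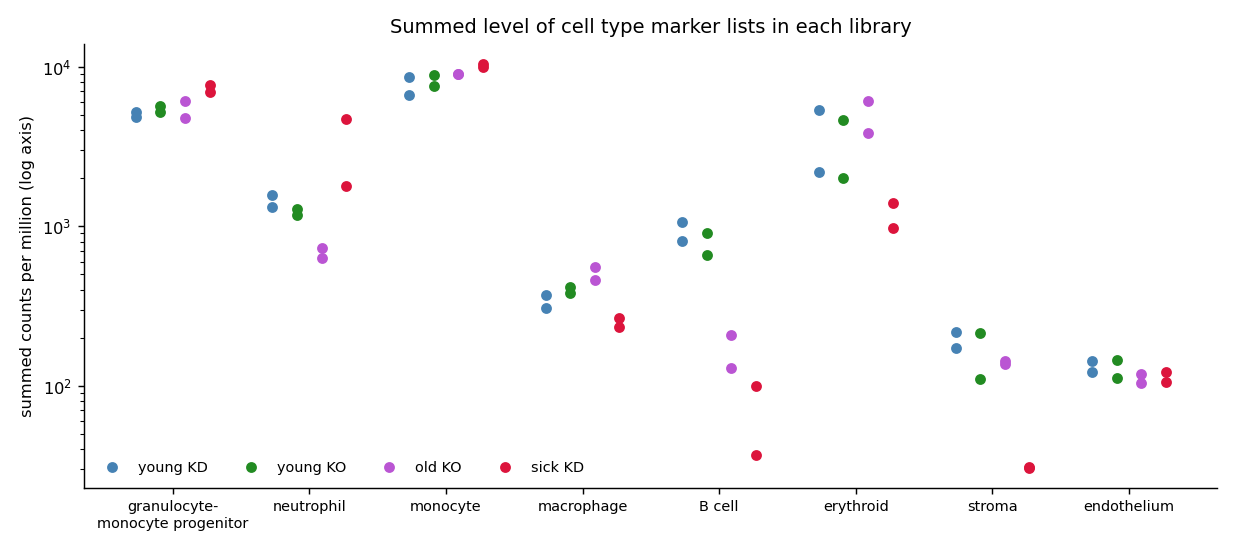
Summed CPM of 8 cell type marker lists in each of the 8 libraries (points, coloured by group; vertical axis on a log scale). The stroma list is at 31.0 and 30.7 CPM in sick KD against 110 to 217 CPM elsewhere, while the endothelium list is at 106 and 121 CPM against 103 to 144 CPM.

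The other growth factors that use these receptors left few or no counts in BM. No library had a count for Csf3 (G-CSF), Il3 (IL-3) or Thpo (thrombopoietin), which allows a level of up to 0.0681 to 0.121 CPM at 3 counts a library; this floor covers counting error only. Csf2 (GM-CSF) had 9 counts over the 8 libraries, with 4 libraries at 0, and Il34, the other ligand of Csf1r, had 70. Csf2, Csf3, Il3 and Thpo passed the filter on low counts in no comparison. Il34 failed it in sick KD minus young KD and in old KO minus sick KD. In the other comparisons, where Il34 passed, 0 ligand genes were called. No change is given for any of these genes.

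Csf1r, the M-CSF receptor, had the highest level of the 9 genes per length of exon, with a mean of 121 CPM per kb over the 8 libraries. Its level was 599 and 762 CPM in sick KD, 648 and 643 in young KD, 639 and 645 in young KO and 864 and 783 in old KO libraries. The old KO libraries were both above the other 6, the young libraries were close together, and the sick KD libraries spanned the young ones. The largest difference was old KO above young KO by a log2 value of 0.36 (SE 0.10, edgeR adjusted p = 0.297), which passed the threshold only with the Wald test of DESeq2 (0.36, adjusted p = 0.0187). Csf1r was not called between old KO and sick KD (log2 0.28, SE 0.17, edgeR adjusted p = 0.279) or between sick KD and young KD (log2 0.07, SE 0.14, edgeR adjusted p = 0.760). The gene shares 873 exon bases with Hmgxb3 on the other strand. It is itself 1 of the 10 genes of the monocyte list, which summed to 9898 and 10375 CPM in sick KD and to 6654 to 8998 CPM in the other 6 libraries. Its genes went both ways, with 4 higher and 1 lower in sick KD than in young KD BM, and 2 higher and 1 lower in old KO than in sick KD BM.

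Csf3r, the G-CSF receptor, had a mean level of 41.5 CPM per kb. It was at 165 and 159 CPM in sick KD, 168 and 153 in old KO, 144 and 139 in young KO and 119 and 151 in young KD libraries. The sick KD and old KO libraries overlapped, and the young KD libraries spanned the young KO ones. No comparison called it: the log2 difference was 0.26 (SE 0.14, edgeR adjusted p = 0.226) for sick KD minus young KD and -0.02 (SE 0.12, edgeR adjusted p = 0.942) for old KO minus sick KD.

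The ratio of Csf3r to Csf1r within a library does not depend on how libraries are scaled, and it sets the neutrophil receptor against the macrophage receptor. Per kb of exon it was 0.442 and 0.334 in sick KD, 0.293 and 0.377 in young KD, 0.360 and 0.344 in young KO and 0.311 and 0.312 in old KO libraries. Both old KO libraries were below both sick KD and both young KO libraries, and no other pair of the groups compared was separated. The mean log2 ratio of old KO minus that of sick KD was -0.30 and minus that of young KO was -0.18, each with an exact two-sided permutation p = 0.333, which is the smallest p that 2 against 2 mice can give. Without sick KD replicate 1 the former difference was -0.10. For sick KD against young KD the difference was 0.21 (exact permutation p = 0.667), and for young KO against young KD it was 0.08 (exact permutation p = 1).

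The neutrophil marker list, with 12 genes, did not follow Csf3r. It summed to 4667 and 1782 CPM in sick KD, 1316 and 1563 CPM in young KD, 1172 and 1272 CPM in young KO and 631 and 731 CPM in old KO libraries. Old KO and sick KD BM thus lay far apart on the sum of this list at overlapping Csf3r levels. Its genes went both ways. Of 11 tested, 1 was called higher and 4 lower in old KO than in sick KD BM. Of 12 tested, 2 were called higher and 1 lower in sick KD than in young KD BM. The 8 genes of the granulocyte-monocyte progenitor list summed to 6949 and 7723 CPM in sick KD against 4772 to 6100 CPM in the other 6 libraries.

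The alpha chain of the GM-CSF receptor, Csf2ra, was at 171 and 202 CPM in sick KD, 150 and 141 in old KO, 132 and 133 in young KO and 126 and 123 in young KD libraries. In this order the libraries of neighbouring groups did not overlap. Csf2ra rose in sick KD against young KD BM by a log2 value of 0.57 (SE 0.12, edgeR adjusted p = 0.0243). The call was lost without young KD replicate 1 or 2, with an adjusted p of 0.134 or 0.126. Old KO minus sick KD gave -0.36 (SE 0.13, edgeR adjusted p = 0.107), past the threshold only after the trend with GC content and length was removed (adjusted p = 0.0158) or with all 8 mice in the fit (adjusted p = 0.0310).

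The beta chain genes lie next to each other on chromosome 15, Csf2rb at chr15:78325752-78353847 on the plus strand and Csf2rb2 at chr15:78282507-78305721 on the minus strand (GRCm38). Their coding sequences are close copies: of 2631 aligned bases of the first listed transcripts in GENCODE M21, 2505 were identical (95.2%), and 26.0% of all windows of 50 bases of the Csf2rb coding sequence occurred unchanged in that of Csf2rb2. The longest stretch without a difference has 242 bases and lies within an exon of each gene, at chr15:78348577-78348818 for Csf2rb and at chr15:78284630-78284871 for Csf2rb2. It is shown because a read that falls inside it cannot be told apart between the genes. Alignments that were not unique were tallied apart from the counts on genes, so such reads can be missing from the counts of both.

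Csf2rb and Csf2rb2, shared coding stretch: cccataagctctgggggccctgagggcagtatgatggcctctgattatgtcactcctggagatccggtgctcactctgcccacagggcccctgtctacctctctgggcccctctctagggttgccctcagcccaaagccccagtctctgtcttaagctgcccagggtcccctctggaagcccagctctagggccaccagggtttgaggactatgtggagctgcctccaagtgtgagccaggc

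Csf2rb, the chain common to GM-CSF, IL-3 and IL-5, was at 446 and 452 CPM in sick KD, 332 and 348 in young KD, 350 and 407 in young KO and 332 and 366 in old KO libraries. The sick KD libraries were the highest, and the old KO libraries overlapped both young groups, while young KO lay above young KD. Csf2rb rose in sick KD against young KD BM by a log2 value of 0.39 (SE 0.11, edgeR adjusted p = 0.0448). Without young KD replicate 1 or 2 its adjusted p was 0.445 or 0.296, and with at least 10 counts asked of every library it was 0.0503. Old KO minus sick KD gave -0.36 (SE 0.13, edgeR adjusted p = 0.103), which was past the threshold with the DESeq2 Wald test (adjusted p = 0.0255), after trend removal (adjusted p = 0.0209) and with all 8 mice in the fit (adjusted p = 0.0351).

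Csf2rb2, the chain that serves IL-3 only, was at 78.4 and 69.6 CPM in sick KD, 40.9 and 43.9 in young KD, 43.9 and 49.3 in young KO and 44.2 and 47.3 in old KO libraries. Both sick KD libraries stood well above the rest, and the young KO and old KO libraries overlapped. Csf2rb2 rose in sick KD against young KD BM by a log2 value of 0.80, or 1.74-fold (SE 0.11 on the log2 scale, edgeR adjusted p = 0.00968), and this call held in all 4 fits that left out 1 library. It was lower in old KO than in sick KD BM by -0.69 (SE 0.12, edgeR adjusted p = 0.0125); without old KO replicate 1 the adjusted p was 0.0518. Summing the counts of both beta chains gave 0.45 (edgeR adjusted p = 0.0335) for sick KD minus young KD. For old KO minus sick KD it gave -0.40 (edgeR adjusted p = 0.0800), which was not called. Csf2rb made up 85.0% to 89.2% of the summed counts, so the sum mostly follows Csf2rb. It cannot show whether the Csf2rb2 calls depend on reads that fit both genes.

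Counts of Csf2rb2 made up 15.0% (95% exact binomial interval 14.3 to 15.6) and 13.3% (12.8 to 13.9) of the counts on both beta chain genes in the sick KD libraries. The share was 11.7% (11.1 to 12.4) and 11.4% (11.0 to 11.9) in old KO, 11.1% (10.7 to 11.6) and 10.8% (10.3 to 11.3) in young KO and 11.0% (10.5 to 11.5) and 11.2% (10.7 to 11.8) in young KD libraries. The intervals cover counting error only, and no test was made of the share. The sick KD intervals lay above those of the other 6 libraries, whose intervals overlapped within each group. The same sick KD libraries had the most alignments that were not unique, at 1.69 and 1.87 per count on genes, and the part of this in the share was not tested.

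**Figure D3:**
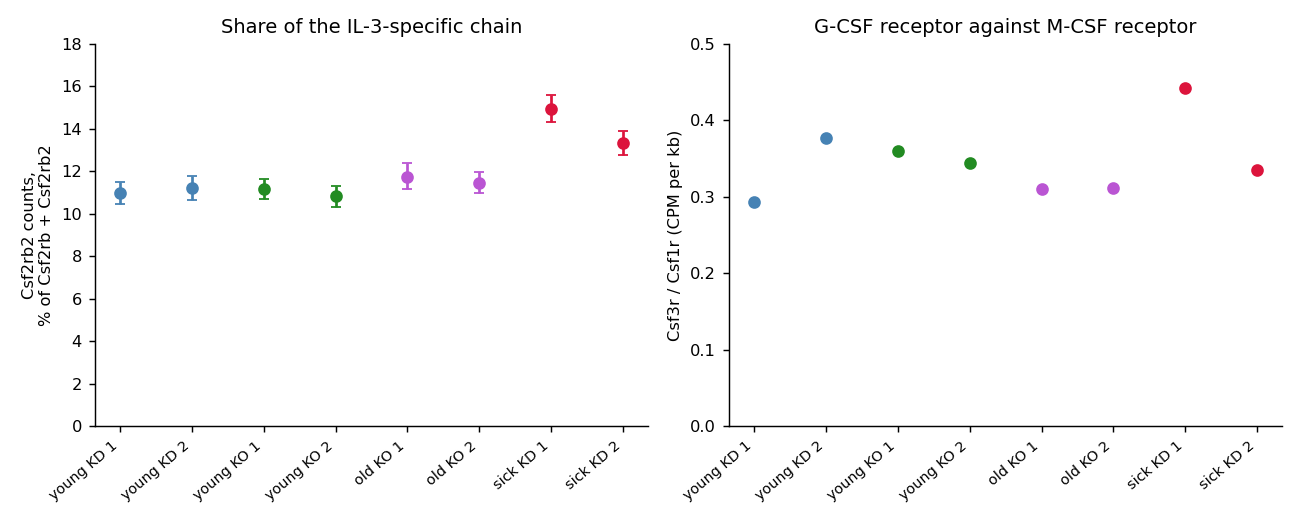
Left, counts of Csf2rb2 as a percentage of the counts on Csf2rb and Csf2rb2 in each library, with 95% exact binomial intervals; right, ratio of Csf3r to Csf1r in CPM per kb in each library. The share is 15.0% and 13.3% in sick KD against 10.8% to 11.7% in the other 6 libraries, and the ratio of the sick KD libraries, 0.442 and 0.334, spans most of the range.

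Il3ra, the alpha chain of the IL-3 receptor, did not follow its beta chains. It was at 19.3 and 27.6 CPM in sick KD, 27.6 and 27.8 in young KD, 28.8 and 27.8 in young KO and 31.6 and 38.5 in old KO libraries. The old KO libraries were the highest, the young groups overlapped, and sick KD replicate 2 lay within the range of young KD. The log2 difference was 0.59 (SE 0.20, edgeR adjusted p = 0.0828) for old KO minus sick KD and -0.25 (SE 0.18, edgeR adjusted p = 0.366) for sick KD minus young KD. The former passed the threshold with the DESeq2 Wald test (adjusted p = 0.0457), with no filter on low counts (adjusted p = 0.00169), after trend removal (adjusted p = 0.0341) and with all 8 mice in the fit (adjusted p = 0.0360). It also passed without sick KD replicate 2 (0.87, adjusted p = 0.0241) and without old KO replicate 1 (0.73, adjusted p = 0.0457), and sick KD minus young KD passed without sick KD replicate 2 (-0.53, adjusted p = 0.0376).

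Per kb of exon, Csf2ra (51.3 CPM per kb), Csf2rb (52.1) and Csf3r (41.5) had levels of like size over the 8 libraries. Csf2rb2 (11.0 CPM per kb) and Il3ra (9.65) stood well below them, with Socs3 (11.7) beside them. Csf1 (1.40 CPM per kb) and Cish (0.461) were the lowest of the 9 genes.

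Socs3, the inhibitor that binds the G-CSF receptor and the gp130 chain, was at 43.5 and 56.6 CPM in sick KD, 33.5 and 27.8 in old KO, 27.7 and 32.0 in young KO and 22.1 and 27.0 in young KD libraries. Both sick KD libraries were the highest, and the young KO and old KO libraries overlapped. Socs3 rose 2.03-fold in sick KD against young KD BM (log2 1.02, SE 0.17, edgeR adjusted p = 0.0137), in all 4 fits that left out 1 library. It was lower in old KO than in sick KD BM by -0.71 (SE 0.17, edgeR adjusted p = 0.0314), and the adjusted p was 0.0747 without sick KD replicate 2 and 0.0918 without old KO replicate 2.

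Cish, the inhibitor that follows STAT5 signalling, had from 39 to 152 counts a library in 4 overlapping groups. It was at 1.57 and 3.49 CPM in sick KD, 3.32 and 2.84 in young KD, 2.20 and 3.93 in young KO and 2.43 and 3.88 in old KO libraries. In 3 of the 4 groups the libraries lay further apart than any of the group means, and no comparison called the gene (sick KD minus young KD, log2 -0.28, SE 0.39, edgeR adjusted p = 0.633). At this depth a change of Cish below this error was not detectable.

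Promoter sequence of RefSeq (GRCm38.p6) was at hand for 7 of the 9 genes, all but Csf1r and Csf2rb. The 250 bases before the start were searched on both strands for the STAT motif TTCNNNGAA, which reads the same on either strand. It was present in 7.02% of 32851 promoter windows, and among the 7 genes in Socs3 and Csf2rb2, which among the 9 genes also had the largest rise in sick KD BM. Csf2ra, also called higher there against young KD, had no match, and Csf2rb, called higher too, could not be searched. Their sequences are printed with the motif in capitals and with positions counted back from the start. The match in Socs3 spans -154 to -146, and that in Csf2rb2 spans -15 to -7. The Socs3 window (chr11:117969452-117969616, minus strand) is given from -250 to -86, where an annotated exon begins, and the Csf2rb2 window (chr15:78305722-78305971, minus strand) from -250 to -1. In GENCODE M21 the Socs3 gene spans chr11:117966079-117970047. The printed Socs3 window, placed by the RefSeq start, thus lies inside that annotated gene.

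Socs3 promoter: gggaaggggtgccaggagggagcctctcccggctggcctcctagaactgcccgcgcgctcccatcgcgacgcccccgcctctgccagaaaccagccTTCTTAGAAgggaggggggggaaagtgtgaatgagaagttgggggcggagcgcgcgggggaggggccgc

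Csf2rb2 promoter: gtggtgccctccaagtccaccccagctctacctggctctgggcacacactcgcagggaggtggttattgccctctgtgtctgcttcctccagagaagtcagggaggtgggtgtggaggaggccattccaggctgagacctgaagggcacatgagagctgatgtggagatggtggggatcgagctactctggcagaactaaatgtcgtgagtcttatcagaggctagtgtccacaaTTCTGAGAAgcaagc

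The PU.1 core GAGGAA was in 23.3% of all windows and in those of Csf3r, Csf2ra and Csf2rb2. The C/EBP motif TTGCNNAA was in 9.56% of all windows and in that of Il3ra. For Gfi1 itself, the longer motif AAATCAC was in 2.75% of all windows and in none of the 7, and its core AAATC was in 32.7% and in those of Csf1 and Csf3r. The motifs PU.1 and STAT do not overlap in the Csf2rb2 window, and a match of letters is no evidence of binding.

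In young mice, where genotype is the difference the labels give, none of the 9 genes was called. Young KO minus young KD called 0 of 9 with edgeR, 0 with the DESeq2 Wald test and 0 at an unadjusted p under 0.05, with a median log2 value of 0.06 against -0.01 over all genes. Socs3 had the largest estimate (0.28, SE 0.13, edgeR adjusted p = 1.0). Over all 14839 genes tested, 394 had an unadjusted p under 0.05. Of these 14839 genes, 0.0202% were called higher and 0.0202% lower, so calls were rare for all genes.

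Age within KO mice likewise called 0 of 9 with edgeR. At an unadjusted p under 0.05 there were 2, Csf1r and Il3ra (log2 0.31, SE 0.12, edgeR adjusted p = 0.530), and 1 with the DESeq2 Wald test, Csf1r. Of the 14847 genes tested there, 1315 had an unadjusted p under 0.05, and 0.323% passed as higher in old KO BM and 0.606% as lower.

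Sick KD minus young KD called 4 of 9 genes higher (Csf2ra, Csf2rb, Csf2rb2 and Socs3) and 1 lower (Csf1), beside 9.45% of all genes higher and 11.4% lower. The median log2 value of the 9 genes was 0.26, and that of all genes 0.01. Old KO minus sick KD called 1 of 9 higher (Csf1) and 2 lower (Csf2rb2 and Socs3), beside 9.93% higher and 8.22% lower among all genes, with a median of -0.02 for the 9 genes and 0.00 for all. Under trend removal, and with all 8 mice in the fit, 6 of the 9 genes were called here. With all 8 mice in the fit, calls over all genes rose as well, from 2626 to 4200.

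**Figure D4:**
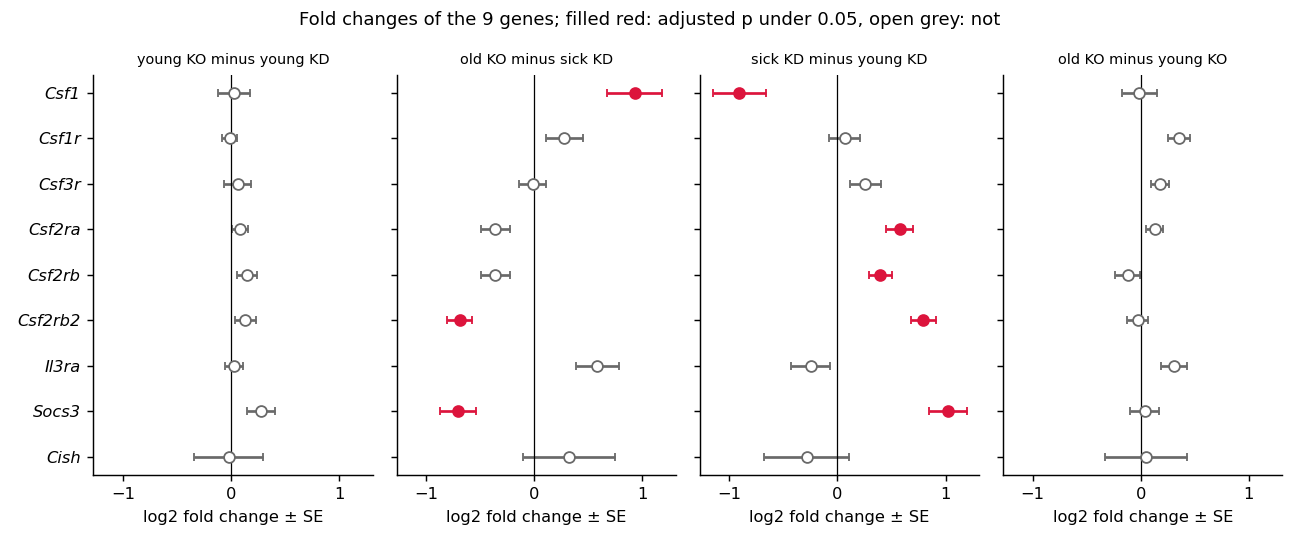
Log2 fold changes of the 9 genes (points) with their standard errors (bars) in 4 comparisons of 2 against 2 mice; filled red points have an edgeR adjusted p under 0.05 and open grey points do not. Filled points are seen only in the comparisons with sick KD mice, 3 for old KO minus sick KD and 5 for sick KD minus young KD.

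Whether the difference between KO and KD mice itself changed from young to old or sick mice was tested in a fit of all 8 mice. Of the 9 genes, 0 were called higher and 2 lower in this interaction, Csf2rb2 by -0.83 (SE 0.15, edgeR adjusted p = 0.0230) and Socs3 by -0.99 (SE 0.24, edgeR adjusted p = 0.0452), beside 4.32% of all genes higher and 3.11% lower. Csf1 had 0.89 (SE 0.29, edgeR adjusted p = 0.0968), Csf2rb -0.52 (SE 0.15, edgeR adjusted p = 0.0705) and Csf2ra -0.45 (SE 0.14, edgeR adjusted p = 0.0870). Leaving out 1 library in turn ended the call of Socs3 in all 8 fits (adjusted p from 0.0523 to 0.170) and that of Csf2rb2 in 5 of 8 (without sick KD replicate 1, old KO replicate 1, young KO replicate 1 or 2, or young KD replicate 1; adjusted p up to 0.0993), while the signs stayed. Without sick KD replicate 2, Csf1 (1.18, adjusted p = 0.0386) and Il3ra (0.82, adjusted p = 0.0362) passed the threshold. With the beta chain counts summed, a sum that mostly follows Csf2rb, the interaction was -0.56 (edgeR adjusted p = 0.0581).

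The wider pathway was described over 6 lists with 97 different genes tested, chosen like the 9 genes with earlier results of these data known. In sick KD minus young KD, 17 of the 97 were called higher and 18 lower, beside 9.45% and 11.4% of all genes, and their median log2 value was -0.11 against 0.01 for all genes. In old KO minus sick KD 14 were higher and 9 lower, beside 9.93% and 8.22% of all genes. In the interaction 6 of 98 were higher and 8 lower, beside 4.32% and 3.11% of all genes. Young KO minus young KD called 0 of 98 with edgeR (2 at an unadjusted p under 0.05, 0 with the DESeq2 Wald test), and old KO minus young KO called 0 of 98 (9 at an unadjusted p under 0.05, 3 with the DESeq2 Wald test). Over all genes, 394 of 14839 in the former and 1315 of 14847 in the latter had an unadjusted p under 0.05.

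**Figure D5:**
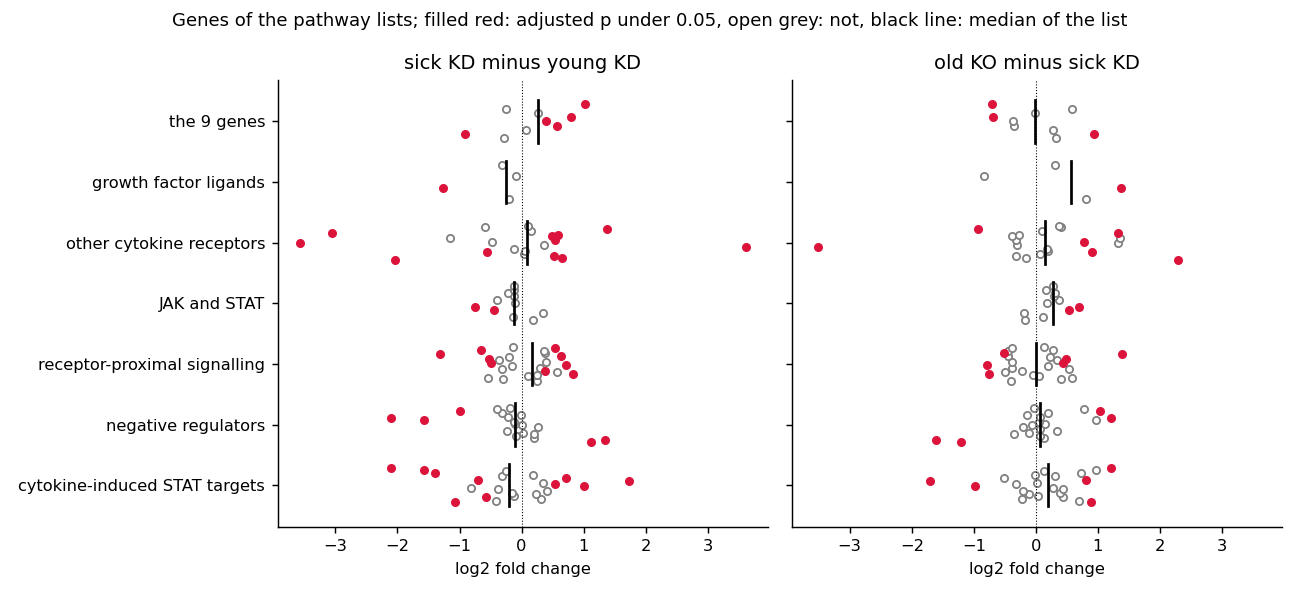
Log2 fold changes of the 9 genes and of the genes of 6 pathway lists (points) in the comparisons with sick KD mice; filled red points have an edgeR adjusted p under 0.05, open grey points do not, and black lines give the median of a list. Points fall on both sides of 0 in nearly every list, with medians between -0.26 and 0.56.

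Among ligands, 4 genes passed the filter and 1 was called in each comparison with sick KD mice, Kitl, the ligand of the receptor Kit, which stroma makes. It was lower in sick KD than in young KD BM by -1.26 (SE 0.28, edgeR adjusted p = 0.0269) and higher in old KO than in sick KD BM by 1.38 (SE 0.32, edgeR adjusted p = 0.0287), the direction of Csf1 in both. The level of Kitl was 1.41 and 1.14 CPM in sick KD against 2.68 to 3.91 CPM in the other 6 libraries. Kitl is itself a member of the stroma list.

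Of 20 other cytokine receptors, 7 were higher and 4 lower in sick KD than in young KD BM, beside 9.45% and 11.4% of all genes. Il1r2, the decoy receptor of IL-1, rose by 3.62 (SE 0.38), from 1.17 and 1.27 CPM to 20.1 and 9.92 CPM. Il2ra (-3.57, SE 0.47), Il7r (-3.05, SE 0.17) and Epor (-2.04, SE 0.27) fell, which encode receptor chains for IL-2, IL-7 and erythropoietin. In the same libraries the B cell list summed to 36.8 and 99.1 CPM in sick KD against 1063 and 805 CPM in young KD. The erythroid list, of which Epor is itself a member, summed to 977 and 1402 CPM against 5356 and 2180 CPM. The B cell list was also lower in old KO (129 and 209 CPM) than in young KO libraries (657 and 905 CPM). Il7r was at 12.6 and 22.3 CPM in old KO against 37.6 and 60.1 in young KO libraries. Il2ra was at 1.20 and 2.37 CPM against 7.59 and 8.65, while Epor, at 17.3 and 9.27 against 8.07 and 11.1, was not lower. None of the 20 receptors was called in old KO minus young KO. The part of these cell types in the falls was not tested. In old KO minus sick KD, 4 were higher and 2 lower, beside 9.93% and 8.22% of all genes, led by Il1r2 (-3.52, SE 0.38), Epor (2.29, SE 0.33), Il7r (1.32, SE 0.29) and Lifr (-0.94, SE 0.17), the receptor of leukemia inhibitory factor. In the interaction 3 were higher and 2 lower, beside 4.32% and 3.11% of all genes, with Il1r2 at -3.84 (SE 0.51) and Epor at 2.50 (SE 0.48).

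Among JAK and STAT genes, Stat2, which transmits interferon signals, was lower in sick KD than in young KD BM by -0.75 (SE 0.15) and higher in old KO than in sick KD BM by 0.69 (SE 0.12). Neither Stat3 nor Stat5a nor Stat5b, the factors downstream of these receptors, passed the threshold in any comparison.

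Of 24 genes that act directly below the receptors, 5 were higher and 4 lower in sick KD than in young KD BM, beside 9.45% and 11.4% of all genes. The largest changes were those of Sla2 (-1.32, SE 0.29), an adaptor of lymphocytes, Gab2 (0.83, SE 0.10), a docking protein below the beta chains, Pik3cg (0.72, SE 0.13), a catalytic subunit of PI3 kinase, and Syk (-0.66, SE 0.11), a tyrosine kinase. In old KO minus sick KD, 3 were higher and 3 lower, which is near the 9.93% and 8.22% of all genes, with Sla2 at 1.40 (SE 0.30), Pik3cg at -0.78 (SE 0.14), Gab2 at -0.75 (SE 0.11) and Sos1, an exchange factor of Ras, at -0.51 (SE 0.13).

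Of 20 other negative regulators, 2 were higher and 3 lower in sick KD than in young KD BM, which is near the 9.45% and 11.4% of all genes. Cblb (1.35, SE 0.12) and Cbl (1.11, SE 0.12), ubiquitin ligases that send receptors such as Csf1r to degradation, rose. The SOCS genes that passed went the other way from Socs3: Socs2 fell by 2.10 (SE 0.37), Socs1 by 1.57 (SE 0.33) and Socs7 by 1.0 (SE 0.19) on the log2 scale. The level of Socs2 was 0.929 and 1.0 CPM in sick KD against 2.20 to 5.28 CPM in the other 6 libraries, and that of Cbl was 327 and 279 CPM against 110 to 140 CPM. In old KO minus sick KD, Cblb (-1.61, SE 0.12) and Cbl (-1.21, SE 0.14) were lower and Socs2 (1.21, SE 0.29) and Socs7 (1.04, SE 0.16) higher.

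Of 22 genes that cytokines induce through STAT factors, 4 were higher and 6 lower in sick KD than in young KD BM, beside 9.45% and 11.4% of all genes. The largest changes were those of Socs2, Lrg1 (1.74, SE 0.12), a glycoprotein of neutrophil granules, Socs1 and Pim2 (-1.39, SE 0.24), a survival kinase. In old KO minus sick KD, 3 were higher and 2 lower, which is near the 9.93% and 8.22% of all genes, led by Lrg1 (-1.71, SE 0.11), Socs2, Id1 (-0.98, SE 0.12), an inhibitor of basic helix-loop-helix factors, and Bcl2l1 (0.88, SE 0.18), a gene against apoptosis. The list thus held changes on both sides in each comparison with sick KD mice.

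The pattern of each of the 9 genes over the 8 libraries was set beside all protein-coding genes with a mean of at least 5 CPM. Pearson's r of log2(CPM + 1) is given as a description, since the 8 libraries share their groups and the sick KD libraries stand apart for many genes. Csf1 was most like Polr3gl (r = 0.996), Zc3h4 (0.990) and Ash2l (0.989). Csf2rb2 was most like Diaph2 (0.995), Map4 (0.990) and Ppp1r3d (0.988). Diaph2 encodes a formin and Map4 a microtubule-binding protein, and Diaph2 had a mean of 139 CPM in sick KD against 59.4 to 65.4 CPM in the other groups. Csf2rb was most like Tagap (0.979), Map2k5 (0.975) and Nr2c1 (0.971). Csf2ra was most like Slc35c2 (0.989), Gps1 (0.984) and Ddx28 (0.982). Socs3 was most like Ap5b1 (0.985), Lpcat4 (0.974) and Gps1 (0.970). Gps1, a subunit of the COP9 signalosome, was thus named for both Csf2ra and Socs3.

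Csf1r was most like Aatf (0.967), Ttn (0.965) and Nsmf (0.964), and all 3 had their highest mean in old KO BM. Csf3r was most like Tmem106a (0.975), Ms4a6b (0.964) and Rogdi (0.964). Il3ra was most like Tmem59 (0.991), Kdelc2 (0.987) and Gna12 (0.986), which also peaked in old KO BM. Cish, the gene with the fewest counts relative to its length, was most like Trim65 (0.964), Naif1 (0.942) and Fiz1 (0.920). Within the 9 genes, the pairs most alike were Csf2ra with Socs3 (r = 0.951) and Csf2rb with Csf2rb2 (0.931), and the pair most unlike was Csf1 with Csf2rb2 (-0.942), again over 8 libraries.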

How the data were processed

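BM cells of 8 mice were profiled by RNA-seq. The authors prepared stranded poly(A) libraries (TruSeq Stranded mRNA), aligned reads to mm10 (GRCm38) with TopHat 2.0.10, processed them with SAMtools and deposited the raw HTSeq count of each Ensembl gene for each mouse. The Ensembl release and the strand setting were not given in the sources used here. The 5 tallies of unassigned reads in each file were kept out of library sizes and tests. Symbols, exon lengths and coordinates came from GENCODE M21, in which 40340 of 41214 identifiers have a symbol, and promoters from RefSeq.

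From these counts, levels were computed as TMM-scaled CPM, and per kb of merged exons where genes were compared. Each comparison was fitted on its own 4 mice, and the interaction on all 8, with the quasi-likelihood test of edgeR 4.0.16 in R 4.3.3 (filterByExpr by group). P-values were adjusted by Benjamini-Hochberg over all genes tested, with calls at an adjusted p under 0.05, and the SE is the absolute log2 fold change over the square root of F. Sums of markers, a list's median and likeness carry no test. Exact tests used scipy 1.17.1, and coding sequences were aligned with Biopython 1.88. The test was tried on simulated data first.

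The genes and lists were chosen with earlier results of these data known. From each pathway list up to 4 genes with the largest absolute log2 fold change among those called were named in a comparison, and for each of the 9 genes the 3 genes of highest r. Stat3, Stat5a and Stat5b, the interaction values of Il1r2 and Epor, and the pairs within the 9 genes were named after their values were seen. A result of the JAK and STAT list is not reported here. Alternatives were DESeq2 1.42.0 (size factors and Wald test), other filters, removal of the 50 most counted and mitochondrially encoded genes, removal of a trend with GC content, length and span, a fit of all 8 mice, and leaving out each library. Libraries of a group differed by more than counting noise (chi-square per degree of freedom from 21.8 to 35.9), so each counted as 1 sample. The edgeR and DESeq2 p-values set a difference against the spread between mice of a group, estimated with help from the other genes tested. The exact permutation p-values come from reassigning the mice to groups.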

Additional observations from a re-analysis of the deposited data

Results flagged for a closer look

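By the interaction test, the step from KD to KO mice at a young age differed from that between the sick KD and old KO groups for Csf2rb2 (-0.83 on the log2 scale, edgeR interaction, adjusted p = 0.0230) and for Socs3 (-0.99, adjusted p = 0.0452). With 1 library left out in turn, the call was lost in 5 of 8 fits for Csf2rb2 and in all 8 for Socs3. In young mice the KO minus KD values were 0.13 for Csf2rb2 and 0.28 for Socs3, and between old KO and sick KD mice they were -0.69 and -0.71. Groups of 2 mice are too small to look for a library that stands apart from its own group.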

How the results depend on the processing

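Each result was recomputed with other settings. Of 532 values of log2 fold changes of the 9 genes, 458 kept their direction and their side of the threshold, 29 were no longer called, 21 became called, and 24 turned their sign, all of them fits that left out 1 library and genes that were not called. All 36 mean levels under DESeq2 size factors moved by less than 1 SD, and of 348 counts of called genes in pathway lists 282 stayed within 1.5 times.

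The number of the 9 genes called in old KO minus sick KD rose from 3 to 5 with the DESeq2 Wald test, and to 6 after trend removal and with all 8 mice fitted. In the interaction it rose from 2 to 5 without a filter and 4 after trend removal, and in old KO minus young KO from 0 to 1 with the DESeq2 Wald test. Leaving out 1 library gave 1 to 3 calls in old KO minus sick KD, 2 to 6 in sick KD minus young KD (5 with all libraries) and 0 to 3 in the interaction.

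Over all genes, young KO minus young KD gave 6 calls, 26 with the DESeq2 Wald test, 119 without a filter, 3 with all 8 mice and 2 to 8 with 1 library left out. Old KO minus sick KD gave 2626 calls, 4325 without a filter, 4200 with all 8 mice and 1221 to 2795 with 1 library left out, and sick KD minus young KD gave 3063, with 1316 to 3401. Old KO minus young KO gave 138, 383 with the Wald test, 796 without a filter and 17 to 307 with 1 library left out. The interaction gave 1122, 1869 with the Wald test, 2919 without a filter, 1880 after trend removal and 106 to 1614 with 1 library left out. The cause of these shifts was not tested.

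With 1 library left out, the Csf3r to Csf1r difference ranged from -0.10 to 0.26 (young KO minus young KD), -0.51 to -0.10 (old KO minus sick KD), 0.01 to 0.41 (sick KD minus young KD) and -0.21 to -0.14 (old KO minus young KO) on the log2 scale. In the same fits the values that changed sign ranged, for young KO minus young KD, from -0.080 to 0.15 (Csf1), -0.10 to 0.25 (Csf3r) and -0.49 to 0.35 (Cish); for old KO minus sick KD, from -0.073 to 0.045 (Csf3r) and -0.13 to 1.01 (Cish); for sick KD minus young KD, from -0.11 to 0.23 (Csf1r) and -0.97 to 0.17 (Cish); for old KO minus young KO, from -0.11 to 0.081 (Csf1), -0.23 to 3.4e-05 (Csf2rb), -0.12 to 0.064 (Csf2rb2), -0.11 to 0.17 (Socs3) and -0.33 to 0.53 (Cish); and for the interaction, from -0.27 to 0.083 (Csf3r) and -0.12 to 1.01 (Cish).

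No paired analysis was possible because the labels number mice individually and groups share no number. With 2 mice a group, a lone mouse is assumed to vary like the other group when its partner is left out, and depth limits what can be seen of Cish and of ligands at or near 0 counts.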
